A study of Mus musculus with 8 samples.

Results

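The genes described here are 10 transcription factors and receptors of blood progenitors: Runx1, Gata2, Myb, Spi1, Cebpa, Cebpe, Gfi1, Irf8, Kit and Flt3. They were chosen by name, and all 10 were found among the 23337 genes of the table, with Spi1 listed under its older symbol Sfpi1. The study asked how tamoxifen affects gene expression in endothelial cells of the mouse embryo. Endothelial cells were sorted by flow cytometry from whole embryos at E15.5, and RNA depleted of ribosomal RNA was sequenced. Both groups carried Cdh5-CreERT2(PAC) and Rosa26fsTRAP, a tamoxifen-inducible Cre driven by the Cdh5 promoter and a Cre-dependent allele, although the genotype field reads wild type. Pregnant mice of the tamoxifen group were gavaged at E12.5, and those of the other group were not. Tamoxifen and Cre activity cannot be told apart in this design, and recombination was not measured here. The labels do not say whether samples came from separate litters, so the spread behind each p-value may be only technical.

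In the embryo the first blood stem and progenitor cells arise from specialised endothelium, a step that needs Runx1 and Gata2, and they then settle in the fetal liver. Progenitors are kept and expanded through receptors such as KIT and FLT3, while factors such as PU.1 (encoded by Spi1), C/EBPα, C/EBPε, GFI1 and IRF8 direct them towards granulocytes, monocytes and dendritic cells. Some of these genes stay on in mature cells, as Kit and Gata2 do in mast cells and Spi1 does in macrophages.

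Values are the authors' normalized read counts, called normalized reads below. The table names 8 libraries over 9 value columns, 1 more than it has names, so the names can be placed in more than 1 way. File columns 3 to 5 are libraries without tamoxifen and columns 7 to 9 are tamoxifen libraries under both ways considered, and these 6 libraries, named in table order no_tamoxifen_1, 2 and 3 and tamoxifen_1, 2 and 3, were compared. Columns 6 and 10 are given apart. The 6 libraries held 12212472 to 19908404 reads in genes, of which the ribosomal precursor Rn45s took 29.4% to 38.7%. Cdh5, which encodes the endothelial cadherin, had 1978 to 5201 normalized reads, and all 14 endothelial markers were detected above the filter. Ptprc, which encodes the leukocyte antigen CD45, had 1758 to 2845, and Csf1r, the macrophage receptor gene, 7464 to 12229, so the sorted cells also held leukocyte RNA. Hspa1b, which encodes a stress-induced chaperone, had 1091 to 1618 normalized reads without tamoxifen and 44218 to 78419 with it, with no overlap between the groups. In column 6 Hspa1b had 924 normalized reads, and in column 10 it had 56354. The placement of the names was not tested with these values. In bulk samples, fewer cells of a type and less RNA per cell cannot be told apart.

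None of the 10 progenitor genes differed between the groups at an adjusted p of 0.05 (limma with Benjamini-Hochberg adjustment over 13480 genes). edgeR and DESeq2 also called 0 of 10. Over all genes limma called 6, or 0.0445%, all higher with tamoxifen, edgeR called 0.0371%, all higher, and DESeq2 called 1.83% higher and 0.208% lower. Only Flt3 had an unadjusted p under 0.05, 1 of 10 genes against 9.01% of all genes tested. The fitted difference was above 0 for 3 progenitor genes and below 0 for 7 (5 and 5 when scaled to leukocyte markers, 4 and 6 when scaled to endothelial markers), with a median of -0.11 on the log2 scale against -0.02 over all genes. All differences below are on the log2(normalized reads + 1) scale, tamoxifen minus no tamoxifen, and on that scale a change in a low gene is understated.

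**Figure D1:**
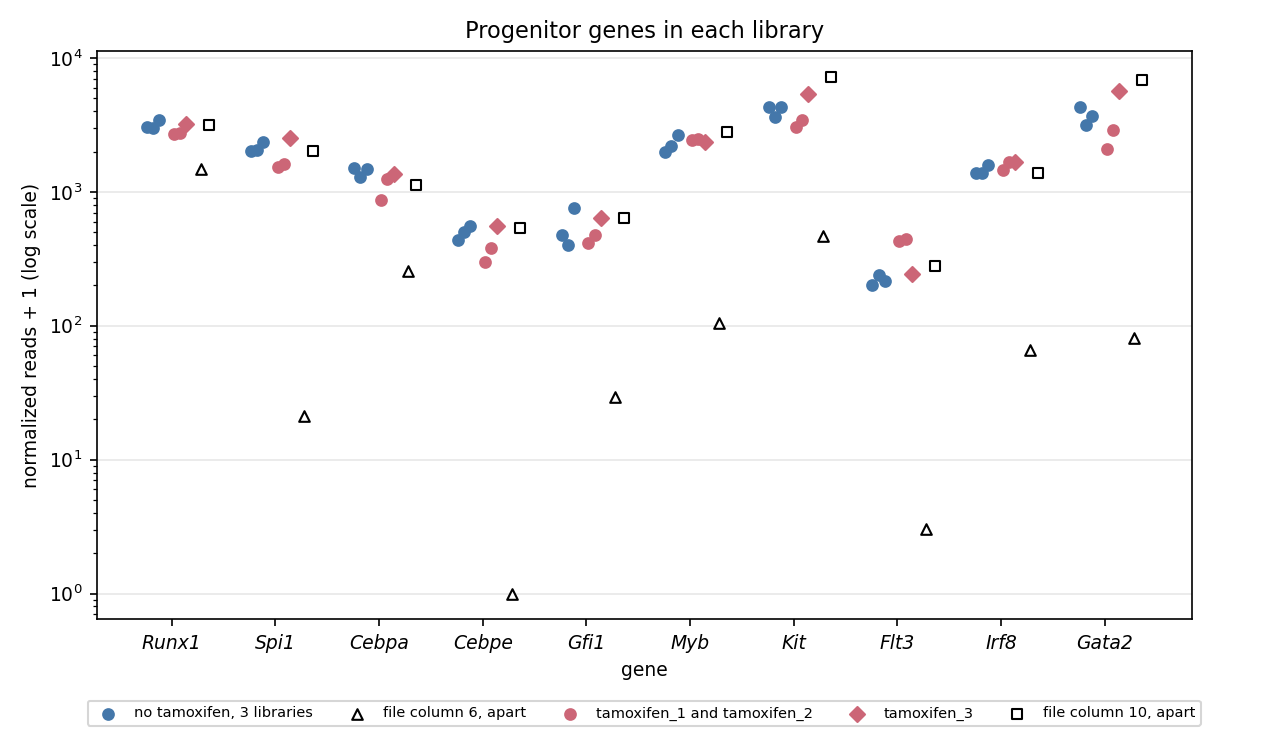
Normalized reads plus 1 (log axis) of the 10 progenitor genes in each library, with circles and diamonds for the 6 compared libraries and open symbols for file columns 6 and 10. The 2 groups overlap for every gene except Flt3, and column 6 lies below the other 7 libraries for every gene.

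Runx1, Gata2 and Myb act earliest. Runx1, which encodes the factor that drives the emergence of blood cells from endothelium, had 3072, 2972 and 3448 normalized reads without tamoxifen and 2723, 2750.5 and 3220.0 with it. Runx1 in tamoxifen_1 and tamoxifen_2 lay below all 3 libraries without tamoxifen, and tamoxifen_3 lay between them. Its difference was -0.13 ± 0.11 (SE, n = 3 per group; 95% interval -0.38 to 0.13; limma adjusted p = 0.745). Runx1 lies at chr16:92601466-92826149 on the minus strand (GRCm38), and its exons overlap the antisense gene Gm26626.

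Gata2, which encodes a zinc-finger factor of stem and progenitor cells and of mast cells, had 4278, 3152 and 3675 normalized reads without tamoxifen and 2090.1, 2871 and 5638 with it. Tamoxifen_3 was the highest of the 6 libraries and tamoxifen_1 the lowest, so the groups overlapped across their full width. The SD of Gata2 was 1864 normalized reads around a mean of 3533 with tamoxifen and 564 around 3702 without it. Its difference of -0.18 ± 0.32 (SE; 95% interval -0.91 to 0.54) had a limma adjusted p of 0.892. Gata2 lies at chr6:88193891-88207032 on the plus strand.

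Myb, the proto-oncogene that sustains immature blood cells, had 1975, 2198 and 2659 normalized reads without tamoxifen and 2459, 2459.8 and 2341 with it. The 3 tamoxifen libraries lay within the range of the others and close together, with an SD of 68.2 against 349. The difference for Myb was 0.10 ± 0.12 (SE; limma adjusted p = 0.837). Its gene at chr10:21124935-21160984 on the minus strand shares exonic sequence with the antisense gene Gm26577.

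The 5 factors of myeloid fate came next. Spi1, whose product PU.1 is required for macrophages and granulocytes, had 2001, 2048 and 2348 normalized reads without tamoxifen and 1529, 1621 and 2507 with it. Tamoxifen_3 had the most Spi1 of the 6 libraries and tamoxifen_1 and tamoxifen_2 the least. The difference was -0.21 ± 0.18 (SE; 95% interval -0.63 to 0.21; limma adjusted p = 0.750), for a gene at chr2:91082390-91115756 on the plus strand.

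Cebpa, which encodes C/EBPα and is needed to form granulocyte-monocyte progenitors, had 1493, 1294 and 1479 normalized reads without tamoxifen and 872, 1254 and 1347 with it. Only tamoxifen_3 overlapped the group without tamoxifen. The difference for Cebpa was -0.32 ± 0.17 (SE; 95% interval -0.70 to 0.06; limma adjusted p = 0.599), the lowest of the 10. Cebpa, at chr7:35119293-35121928 on the plus strand, overlaps the antisense gene Gm45091 in its exons.

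Cebpe, which encodes C/EBPε of late granulocyte maturation, had 435, 498 and 555 normalized reads without tamoxifen and 297, 377 and 559 with it. Again tamoxifen_1 and tamoxifen_2 were the lowest of the 6 libraries and tamoxifen_3 the highest. The difference was -0.31 ± 0.22 (SE; limma adjusted p = 0.682). Cebpe lies at chr14:54710360-54712174 on the minus strand.

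Gfi1, which encodes a repressor needed for neutrophils, had 474, 401 and 761 normalized reads without tamoxifen and 414, 473 and 632 with it. The widest spread of Gfi1 was among the libraries without tamoxifen, where no_tamoxifen_3 was the highest of all 6. Its difference was -0.07 ± 0.25 (SE; limma adjusted p = 0.947), and this sign turned when values were scaled to endothelial or to leukocyte markers. Gfi1, at chr5:107716657-107726036 on the minus strand, shares exonic sequence with A430072P03Rik.

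Irf8, which encodes a factor of monocytes and dendritic cells, had 1376, 1374 and 1579.8 normalized reads without tamoxifen and 1456, 1656 and 1674 with it. Tamoxifen_2 and tamoxifen_3 exceeded the other 4 libraries, and tamoxifen_1 lay within the range without tamoxifen. The difference was 0.14 ± 0.11 (SE; limma adjusted p = 0.699), for a gene at chr8:120736358-120756694 on the plus strand. For Runx1, Cebpa, Gfi1 and Myb, reads from the gene and from its overlapping antisense partner cannot be told apart, since no source used here says whether counting used the strand.

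The receptors were Kit and Flt3. Kit, which encodes the receptor of stem cell factor, had 4303, 3628 and 4325 normalized reads without tamoxifen and 3063, 3413 and 5342 with it. As for Gata2, tamoxifen_3 held the most Kit of the 6 libraries and tamoxifen_1 the least. The difference was -0.09 ± 0.20 (SE; 95% interval -0.55 to 0.36; limma adjusted p = 0.913), and its sign also turned when values were scaled to leukocyte markers. Kit lies at chr5:75574916-75656722 on the plus strand.

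Flt3, which encodes the receptor of FLT3 ligand on multipotent and lymphoid progenitors and dendritic cell precursors, had 201, 238 and 215 normalized reads without tamoxifen and 426, 447 and 241 with it. All 3 tamoxifen libraries exceeded the other 3, but tamoxifen_3 did so by a narrow margin over no_tamoxifen_2. Flt3 was the only 1 of the 10 whose groups did not overlap, against 13.9% of all genes tested and 6.24% with tamoxifen above. The difference was 0.72 ± 0.23 (SE; 95% interval 0.18 to 1.25), a 1.64-fold level (95% interval 1.13 to 2.39) with an unadjusted p of 0.0149 and a limma adjusted p of 0.475. The adjusted p was 0.345 with edgeR and 0.0987 with DESeq2. Flt3 lies at chr5:147330741-147400489 on the minus strand.

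**Figure D2:**
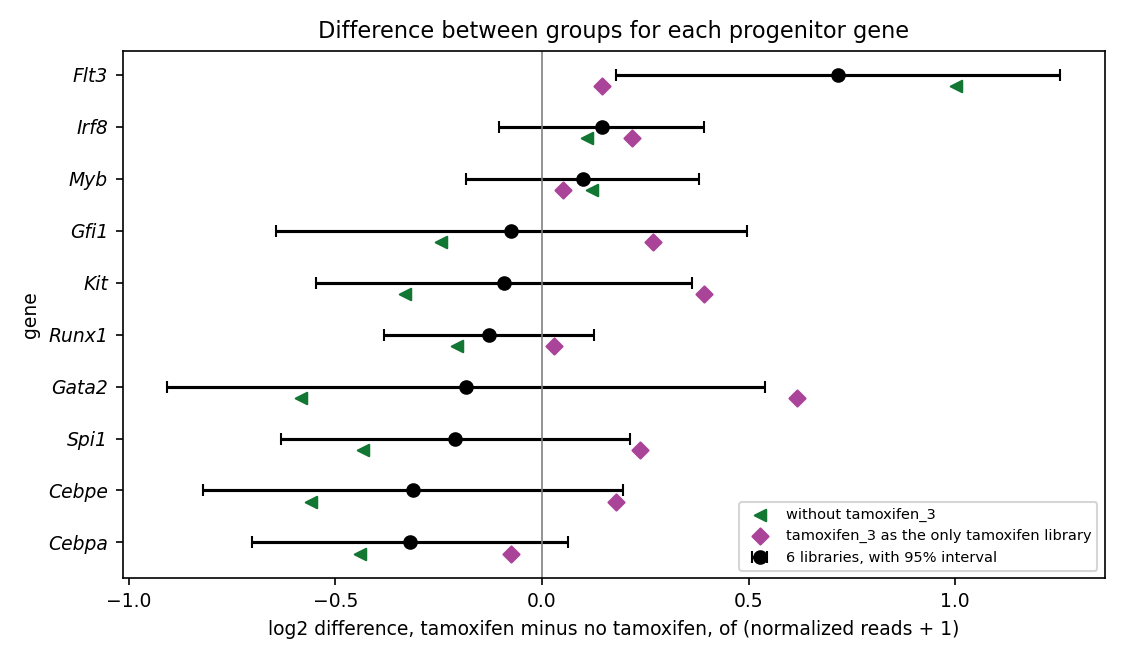
Difference between the groups for each progenitor gene on the log2(normalized reads + 1) scale, with circles and bars for the 6 libraries with 95% intervals and other symbols for fits without tamoxifen_3 or with it as the only tamoxifen library. The intervals of all genes except Flt3 include 0, and for 6 of the 7 genes with a difference below 0 the estimate from tamoxifen_3 alone lies above 0.

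The tamoxifen libraries differed among themselves. In both tamoxifen_1 and tamoxifen_2, 6 of 10 progenitor genes lay below every library without tamoxifen: Runx1, Spi1, Cebpa, Cebpe, Kit and Gata2. For each library by itself, 34.3% of all genes lay below in tamoxifen_1 and 35.0% in tamoxifen_2. The share of all genes below in both libraries was not computed. In tamoxifen_3 none of the 10 lay below, against 26.7% of all genes. In that library 6 lay above, namely Spi1, Cebpe, Kit, Flt3, Irf8 and Gata2, against 29.3% of all genes. The median difference of the 10 genes from the mean without tamoxifen was -0.38 in tamoxifen_1, -0.19 in tamoxifen_2 and 0.20 in tamoxifen_3.

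Without tamoxifen_3, limma called 4 of the 10 genes, beside 7.22% of all genes higher and 3.48% lower. Flt3 was then higher by 1.002 ± 0.159 (SE, limma adjusted p = 0.000507). Gata2 was lower, at -0.58 ± 0.15 (limma adjusted p = 0.0194), Spi1 at -0.43 ± 0.12 (limma adjusted p = 0.0272) and Cebpe at -0.56 ± 0.16 (limma adjusted p = 0.0346). With tamoxifen_3 as the only tamoxifen library, an alternative added after seeing the data that assumes it varies like the libraries without tamoxifen, limma called 0 of the 10, beside 0.208% of all genes higher and 0.467% lower, and Gata2 stood at 0.62 ± 0.18 (limma adjusted p = 0.163). The calls of lower Gata2, Spi1 and Cebpe therefore rest on tamoxifen_1 and tamoxifen_2, and their direction was the opposite in tamoxifen_3.

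Summed leukocyte markers moved with Spi1, Cebpe, Kit and Gata2, low in tamoxifen_1 and tamoxifen_2 and high in tamoxifen_3. Runx1 and Cebpa shared only the low values. Myb, Gfi1 and Irf8 were not below the range without tamoxifen in tamoxifen_1 or tamoxifen_2, and Flt3 was above it in both. The 12 leukocyte markers together had 36372 to 41987 normalized reads without tamoxifen, 33054 in tamoxifen_1, 31229 in tamoxifen_2 and 46153 in tamoxifen_3. Summed macrophage markers had 43955 to 53313 without tamoxifen and 36464, 35235 and 53994 in the 3 tamoxifen libraries in the same order. Mesenchymal markers, led by Col1a1, went the other way in tamoxifen_1 and tamoxifen_2. They had 2405 to 4769 normalized reads without tamoxifen and 58063, 88424 and 5009 with it. In tamoxifen_3 both the leukocyte and the mesenchymal sums thus lay above the range without tamoxifen. The 14 endothelial markers had 14900 to 23584 without tamoxifen and 24033, 24652 and 10008 with it. The part of these markers in the differences of the progenitor genes was not tested.

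Kit and Gata2 had the most similar pattern of all 45 pairs of the 10 genes, with a Pearson r of 0.978 over the 6 libraries. Kit stood at 1.01, 1.15 and 1.18 times Gata2 in the libraries without tamoxifen and 1.47, 1.19 and 0.95 times Gata2 in the tamoxifen libraries. These libraries share their scaling and cell makeup, and r is given as a description. Both genes also belong to the mast cell and basophil markers. Of the 8 other tested markers of that list, 7 lay above every library without tamoxifen in tamoxifen_3, 0 in tamoxifen_1 and 2 in tamoxifen_2. In each of the latter libraries 4 lay below. Over all genes, 29.3% lay above in tamoxifen_3, 28.9% in tamoxifen_1 and 26.7% in tamoxifen_2. Below lay 34.3% of all genes in tamoxifen_1 and 35% in tamoxifen_2. Hdc, which encodes the histamine-forming enzyme, had 10314, 7359 and 7313 normalized reads without tamoxifen and 7750, 9615 and 13711 with it, and the mast cell chymase gene Cma1 had 8580.3, 5466 and 6120.4 without tamoxifen and 5495, 7203 and 12062 with it. Without Kit and Gata2, the mast cell markers summed to 21253 to 31431 normalized reads without tamoxifen and to 22223, 28209.8 and 41337 with it. They were highest in tamoxifen_3 like Kit and Gata2, but tamoxifen_1 and tamoxifen_2 lay within the range without tamoxifen, and their part in the levels of Kit and Gata2 was not tested.

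Flt3 followed other markers. Of 10 tested lymphoid markers, 8 lay above every library without tamoxifen in tamoxifen_1, 8 in tamoxifen_2 and 1 in tamoxifen_3. Over all genes the shares above were 28.9%, 26.7% and 29.3% in the same order. Rag1, which encodes part of the recombinase of lymphocyte receptor genes, had 92.8, 150.2 and 136 normalized reads without tamoxifen and 1011, 607 and 122 with it. Its difference of 1.76 ± 0.66 (SE) was not past the threshold (limma adjusted p = 0.503), and Dntt, the terminal transferase gene, was 0 in all 6 libraries. The lymphoid markers Nkg7 and Cd79b did not share this pattern. Both lay within the range without tamoxifen in tamoxifen_1 and tamoxifen_2. Their differences were 0.13 ± 0.22 for Nkg7 and -0.06 ± 0.15 for Cd79b (SE). The summed lymphoid markers were 626 to 839 without tamoxifen and 2559, 1881 and 746 with it, so tamoxifen_1 and tamoxifen_2 were high as for Flt3, and their part in the level of Flt3 was not tested. The mesenchymal sums given above were also highest in tamoxifen_1 and tamoxifen_2, and their part was not tested either. Flt3 and Irf8 also belong to the dendritic cell markers. Of the 7 other tested markers of that list, 4 lay above every library without tamoxifen in tamoxifen_1, 3 in tamoxifen_2 and 1 in tamoxifen_3. In the same order 1, 1 and 3 lay below, against 34.3%, 35% and 26.7% of all genes. The 7 markers summed to 253.4 to 289.9 normalized reads without tamoxifen and to 430.3, 399.0 and 230.1 in the tamoxifen libraries. Siglech, a plasmacytoid dendritic cell gene, had 25.9 to 30.4 normalized reads without tamoxifen, 76.8 in tamoxifen_1, 53.2 in tamoxifen_2 and 40.7 in tamoxifen_3, while Cd209a had 13.9 to 22.7 without tamoxifen and 6.15, 6.65 and 13.3 in the tamoxifen libraries. The 2 genes were chosen after their values were seen, and the part of dendritic cell markers in the level of Flt3 was not tested. Flt3 over Kit came to 0.0468, 0.0655 and 0.0496 in the group without tamoxifen and to 0.139, 0.131 and 0.0450 in the tamoxifen group.

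**Figure D3:**
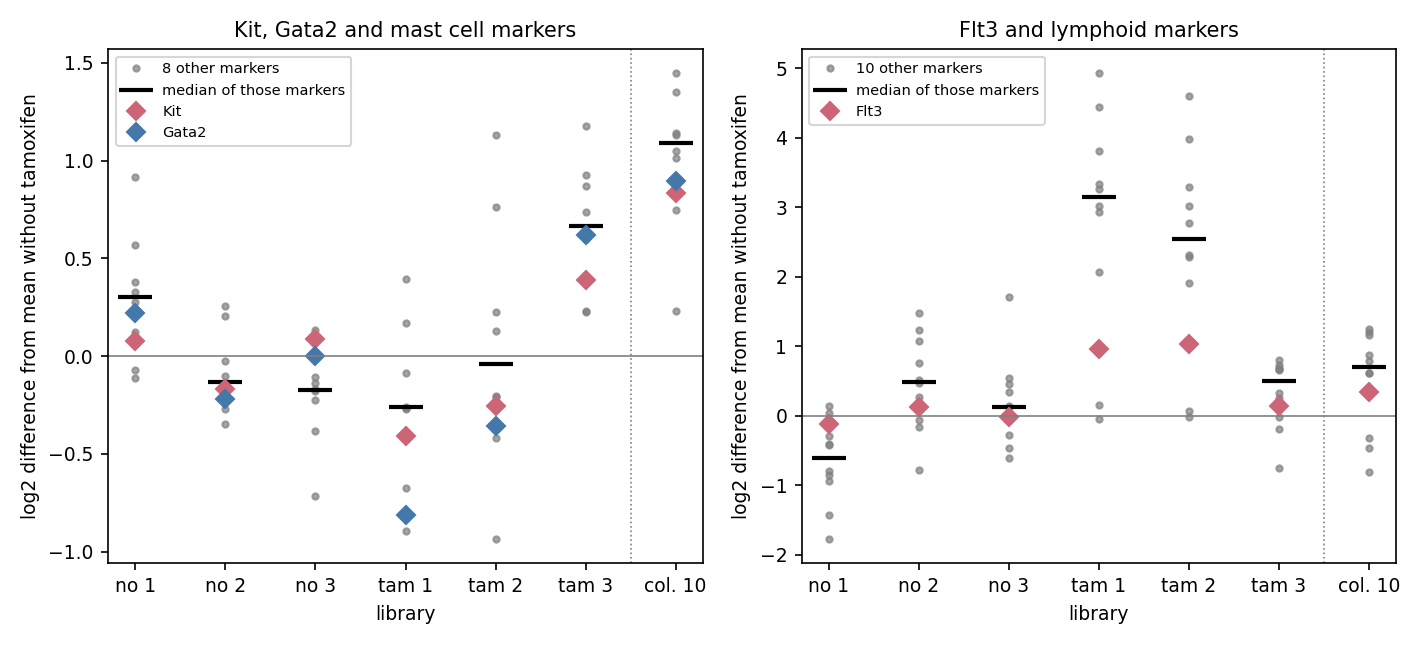
Log2(normalized reads + 1) minus its mean over the libraries without tamoxifen, for Kit and Gata2 with the 8 other mast cell and basophil markers (left) and for Flt3 with 10 lymphoid markers (right), in 3 libraries without tamoxifen (no), 3 with it (tam) and file column 10. Kit and Gata2 are high in tamoxifen_3 and column 10 along with the mast cell markers, while Flt3 is high in tamoxifen_1 and tamoxifen_2 along with most lymphoid markers.

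Promoter windows from RefSeq (GRCm38.p6, 250 bases before to 50 after a transcript start) were matched for 8 of the 10 genes. They were searched on both strands for a GATA word (AGATAA or TGATAA), an ETS word (GAGGAA) and a RUNX word (TGTGGT), the words of factor families that include GATA2, PU.1 and RUNX1. Of 32851 windows of that length, 18.6% held the GATA word, 28.3% the ETS word and 16.8% the RUNX word. Kit and Gata2 are shown because they moved together and Flt3 because its pattern differed from theirs, and Runx1 is shown because it kept the largest share of its level in column 6. The first listed window of each is shown, and capitals mark the words found. The windows are chr5:75574737-75575036 on the plus strand for Kit, chr6:88193641-88193940 on the plus strand for Gata2, chr5:147400440-147400739 on the minus strand for Flt3 and chr16:92826025-92826324 on the minus strand for Runx1.
Kit: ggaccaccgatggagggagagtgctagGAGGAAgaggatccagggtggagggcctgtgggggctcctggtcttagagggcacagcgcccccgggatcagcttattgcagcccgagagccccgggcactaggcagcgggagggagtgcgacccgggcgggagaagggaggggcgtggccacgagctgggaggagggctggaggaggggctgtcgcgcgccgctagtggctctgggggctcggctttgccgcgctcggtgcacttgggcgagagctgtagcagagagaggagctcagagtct
Gata2: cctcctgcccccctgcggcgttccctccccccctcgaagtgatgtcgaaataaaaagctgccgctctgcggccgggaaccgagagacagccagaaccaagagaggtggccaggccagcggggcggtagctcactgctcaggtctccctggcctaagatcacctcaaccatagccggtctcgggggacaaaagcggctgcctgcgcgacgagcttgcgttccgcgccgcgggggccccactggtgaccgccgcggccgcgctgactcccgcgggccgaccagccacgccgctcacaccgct
Flt3: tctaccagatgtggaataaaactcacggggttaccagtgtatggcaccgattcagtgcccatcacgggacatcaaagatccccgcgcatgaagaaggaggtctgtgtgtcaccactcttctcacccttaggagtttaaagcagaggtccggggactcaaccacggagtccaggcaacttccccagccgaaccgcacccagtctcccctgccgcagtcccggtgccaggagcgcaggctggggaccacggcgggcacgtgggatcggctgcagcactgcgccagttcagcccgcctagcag
Runx1: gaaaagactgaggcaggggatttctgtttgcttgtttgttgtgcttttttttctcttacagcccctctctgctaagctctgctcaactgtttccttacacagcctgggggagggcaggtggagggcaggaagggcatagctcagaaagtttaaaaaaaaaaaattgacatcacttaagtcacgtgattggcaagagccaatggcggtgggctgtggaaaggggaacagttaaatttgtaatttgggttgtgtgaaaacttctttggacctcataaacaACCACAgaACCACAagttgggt
The Kit window holds the ETS word at position -223 from the start, and the Runx1 window holds the RUNX word as ACCACA on the printed strand at positions 29 and 37. None of the 13 windows of the 8 genes held the GATA word, which says only that these letters are not in those windows. The G+C share was 69.0% for Kit, 69.3% for Gata2, 61.0% for Flt3 and 45.0% for Runx1.

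Per kilobase of exon, Spi1 had the highest level of the 10 genes. Its mean over the 6 libraries was 745 normalized reads per kb (range 567 to 930.4), followed by Gata2 at 670.1 (387 to 1044), Cebpa at 489 (331 to 566) and Kit at 450.3 (344 to 599). Cebpe followed at 366 normalized reads per kb, Myb at 263, Runx1 at 252, Irf8 at 215 and Gfi1 at 165. Flt3 was lowest at 47.7 normalized reads per kb (32.6 to 72.3). Neighbours in this order had overlapping ranges in all cases except Gfi1 and Flt3. Exon lengths came from GENCODE M21 and include all annotated isoforms, so the order can differ from that of the isoforms expressed.

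**Figure D4:**
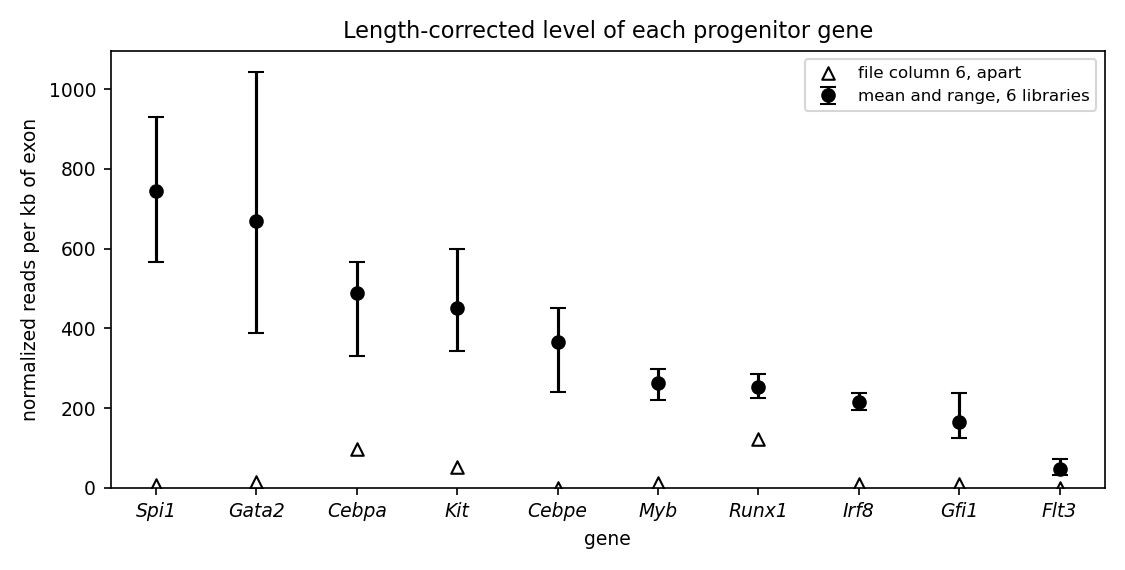
Normalized reads per kb of exon for the 10 progenitor genes (circles, mean of 6 libraries; bars, lowest to highest library) and in file column 6 (triangles). Spi1 and Gata2 have the highest means, at 745 and 670.1, and Flt3 the lowest, at 47.7.

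Column 6 lacked most of these transcripts. It held 725 recovered reads of Runx1, 231 of Kit, 125 of Cebpa, 51 of Myb, 39 of Gata2, 32 of Irf8, 14 of Gfi1, 10 of Spi1, 1 of Flt3 and 0 of Cebpe. Its Runx1 level was 54.2% of the lowest of the 6 libraries, Cebpa 29.2% and Kit 15.3%. The other genes with over 3 reads stood at 1.33% (Spi1) to 7.11% (Gfi1), and Cebpe was at least 48.7-fold lower than in the lowest of the 6, taking 3 reads in that column as the limit that a count of 0 allows. All 10 genes lay below every library without tamoxifen, against 47.8% of all genes. The summed leukocyte markers in column 6 were 771 normalized reads, the erythroid markers 144562 against 185 to 1381 in the 6 libraries, and the mesenchymal markers 459686. The library is thus unlike the others in its markers as well, and their part in the levels was not tested.

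Column 10 was close to tamoxifen_3, with a correlation of 0.984 across genes, which are not independent replicates. Its correlation was 0.960 to 0.973 with the libraries without tamoxifen, 0.929 with tamoxifen_1 and 0.919 with tamoxifen_2. Tamoxifen_3 likewise stood at 0.982 with no_tamoxifen_3 and 0.941 with tamoxifen_1. Column 10 had the highest Kit (7256 normalized reads), Gata2 (6844) and Myb (2807) of all 8 columns shown. It had the highest Kit (7256 normalized reads), Gata2 (6844) and Myb (2807) of all 8 columns shown. Its mast cell markers other than Kit and Gata2 summed to 53955 normalized reads, also the highest. Cebpa, at 1120.0 normalized reads, was the only 1 of the 10 below every library without tamoxifen, against 29.4% of all genes.

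Other genes of these pathways were read from 6 lists, 96 genes of which 90 were tested. limma and edgeR called 0 of the 90, and 14 had an unadjusted p under 0.05, 15.6% against 9.01% of all genes. DESeq2 called 4, all higher with tamoxifen: Bcl11b, Tcf7, Pax5 and Csf1. Of the 90 differences 55 were above 0, with a median of 0.10 against -0.02 over all genes.

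Among the 20 stem and progenitor regulators, 12 differences were above 0 and the median was 0.03. Adgrg1, which encodes an adhesion receptor of stem cells, had 1134, 1226 and 1537 normalized reads without tamoxifen and 2141, 1901 and 1542 with it (difference 0.52 ± 0.16 SE; limma adjusted p = 0.462). Fli1, an ETS factor of endothelium and blood, had 2408, 2499.8 and 2024 without tamoxifen and 1728, 1845 and 1933 with it (difference -0.33 ± 0.11 SE; limma adjusted p = 0.474). The groups did not overlap for either gene, and neither passed the threshold. Groups did not overlap for 13.9% of all genes tested, and these 2 genes were named for their low p. For Adgrg1, tamoxifen_3 exceeded no_tamoxifen_3 only narrowly.

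Myeloid fate regulators had 12 of 20 differences above 0 and a median of 0.08. The 2 of lowest p were Irf4, a relative of Irf8, at 1.003 ± 0.26 (SE; limma adjusted p = 0.460), and Egr2, a zinc-finger factor of myeloid cells, at 0.98 ± 0.31 (SE; limma adjusted p = 0.462). Erythroid, megakaryocyte and lymphoid regulators had 12 of 14 above 0 and a median of 0.66. Pax5, the B-cell commitment factor, had 86 to 122 normalized reads in tamoxifen_1 and tamoxifen_2 and 7 to 15 in the other 4 libraries. Bcl11b, a T-cell factor, had 42 to 48 normalized reads without tamoxifen, 279 in tamoxifen_1, 225 in tamoxifen_2 and 51 in tamoxifen_3. These 2 genes and Flt3 shared high values in tamoxifen_1 and tamoxifen_2.

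Receptors of blood cells had 7 of 15 differences above 0 and a median of -0.09, and 0 had an unadjusted p under 0.05. Ptprc differed by -0.27 ± 0.15 (SE; limma adjusted p = 0.601). Only 5 of 11 ligand genes passed the filter. Kitl, the ligand of KIT, had 475, 346 and 224 normalized reads without tamoxifen and 509, 473 and 177 with it, high where Kit was low among the tamoxifen libraries. Its difference was 0.07 ± 0.42 (SE; limma adjusted p = 0.973). Flt3l, the ligand of FLT3, had 59.0, 32.4 and 43.4 normalized reads without tamoxifen and 51.2, 62.7 and 68.7 with it (limma adjusted p = 0.644). Csf1, which encodes the macrophage growth factor that binds CSF1R, had 541, 504 and 628 without tamoxifen and 914, 670 and 901 with it (difference 0.56 ± 0.15 SE; limma adjusted p = 0.462). Epo was 0 in all 6 libraries.

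Granule and differentiation genes, which lie downstream of the myeloid factors, had 7 of 16 differences above 0 and a median of -0.02. Ctsg, a granule protease gene, had 3637, 4291 and 4605 normalized reads without tamoxifen and 2798, 3115 and 3402 with it. Every tamoxifen library was below the others for Ctsg, at -0.43 ± 0.12 (SE; limma adjusted p = 0.462). Of all genes tested, 13.9% had groups that did not overlap, in either direction. Chil3, which encodes a chitinase-like protein of myeloid cells, went the other way. It had 21.7, 23.8 and 15.2 normalized reads without tamoxifen, 42.0 in tamoxifen_1, 32.3 in tamoxifen_2 and 78.6 in tamoxifen_3, a difference of 1.22 ± 0.40 (SE; limma adjusted p = 0.474). Mpo, the myeloperoxidase gene, had 34557, 41931 and 59463 without tamoxifen and 42297, 40658 and 47168 with it, and the groups overlapped.

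For likeness of pattern over the 8 columns, the listed genes with the highest Pearson r of log2(normalized reads + 1) are given as a description, since column 6 sets most of each r. Spi1 was most like Cx3cr1, a macrophage and monocyte receptor gene, and Adgre1, the macrophage F4/80 gene. Gfi1 was most like Rac2 and Csf3r, the latter the receptor gene of granulocyte growth factor, with r of 0.883 and 0.906 over the 6 libraries. Kit was most like Gata2 and Ikzf1, and Flt3 was close to Itgax, which encodes a dendritic cell integrin. Runx1 and Cebpa shared Il6ra as the listed gene most like them, with r of 0.988 for Runx1 and 0.983 for Cebpa; next came Camp for Runx1 and Csf2ra for Cebpa. Cebpe was most like the leukocyte gene Vav1 and Spi1, and Gata2 was most like Kit and Csf2rb. Myb was most like Cxcr4 and Mpo, and Irf8 was most like Mpo and Elane, but r over the 6 libraries was only 0.645 and 0.815 for Myb and 0.519 and 0.560 for Irf8. Over the 6 libraries alone, an alternative choice made after the values were seen, the most alike gene was another for 8 of the 10 and the same for Runx1 and Kit. It was Hbb-y for Spi1 (r of 0.980 over 6 libraries and 0.261 over 8) and Epor for Cebpa (0.834 and -0.89). For Flt3 it was the mesenchymal marker Acan, with r of 0.992 over 6 libraries and -0.54 over 8. For the other 5, r over the 6 libraries was 0.983 between Cebpe and Csf2ra, 0.922 between Gfi1 and Prtn3, 0.924 between Myb and Ly6c2, 0.907 between Irf8 and Runx3, and 0.981 between Gata2 and Maf.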

How the data were processed

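The labels list 8 samples, 4 per group. The deposited values are a signal unit, the authors' normalized read counts per gene. STAR, HTSeq 0.11.2, DESeq2 and the builds hg38 and mm10 appear, without roles, per the submitters' processing notes. Values were whole multiples of what 1 read is worth (100% within 0.001), so reads were recovered for depth and count tests. The header has 9 fields for 10 per line. Columns 3 to 5 and 7 to 9 were compared, which departs from the 8 libraries of the planned design. Of the 9 value columns, 1 was not used.

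Genes with a mean of at least 10 over the 6 libraries were tested with limma 3.58.1 (R 4.3.3) on log2(value + 1), with a trend, fitting group alone, at a Benjamini-Hochberg adjusted p of 0.05. edgeR 4.0.16 and DESeq2 1.42.0 on recovered reads were alternatives, beside other pseudocounts, filters, scalings, column placements and left-out libraries. limma was tested on simulated data with known fold changes. Named genes were all 10, the 2 of lowest p per pathway list, the 2 highest and any at 0 per marker list, the 2 most alike genes, and check genes. Of these, only those that bear on the 10 genes are printed, and 2 are not reported here. Members and lists were chosen with earlier results of these data known. Of 235 listed symbols 232 were found, 6 under an older symbol. Coordinates are from GENCODE M21 on GRCm38.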

Additional observations from a re-analysis of the deposited data

Results flagged for a closer look

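Column 10, whose place in the header is uncertain and which entered comparisons between the groups only as an alternative, exceeded every library without tamoxifen for 4 of the 10 progenitor genes. Its values were 7256.2 normalized reads for Kit, 6844.2 for Gata2, 2807.2 for Myb and 276.4 for Flt3. Its Hspa1b value of 56354 normalized reads lay within the range of the tamoxifen libraries. Of all genes, 25.6% lay above every library without tamoxifen in that column.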

How the results depend on the processing

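Under 20 alternatives, limma, edgeR and DESeq2 called 0 of the 10 progenitor genes except without tamoxifen_3. Leaving out each library in turn gave 0 to 1 of the 10 higher and 0 to 3 lower, 2 to 973 of all genes higher and 0 to 469 lower, and 0 to 14 pathway genes higher and 0 to 7 lower, the upper values all without tamoxifen_3. Over all genes, higher and lower calls were 247 and 28 with DESeq2, against 6 and 0. Scaling to endothelial markers gave 180 higher and 1 pathway gene (Pax5), DESeq2 4 pathway genes. With names over the first 8 value columns 0 were higher, with column 10 added 1 was lower, and with tamoxifen_3 alone 28 were higher and 63 lower, with 3 pathway genes higher. Deviations from group means correlated at 0.195, 0.0364 and 0.345 between same-numbered libraries, and at -0.334 to 0.329 between the others. With 3 libraries per group this cannot decide whether the numbers pair the samples. A fit with the replicate block gave 20 higher and 1 lower, with 0 of the 10 genes called. The median over all genes moved from -0.02 to 0.08 with leukocyte scaling and 0.07 with endothelial scaling.

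Signs reversed as follows, and the cause was not tested. Leukocyte scaling gave Gfi1 0.023 and Kit 0.0064, and endothelial scaling Gfi1 0.016. Left-out libraries gave Gfi1 -0.27 to 0.19, Kit -0.33 to 0.068 and Gata2 -0.58 to 0.13. Names over the last 8 columns, which put column 6 among the libraries without tamoxifen, gave Runx1 0.18, Spi1 1.49, Cebpa 0.29, Cebpe 2.03, Gfi1 1.05, Kit 0.92 and Gata2 1.47. Names over the first 8, which put it among the tamoxifen libraries, gave Myb -1.03, Flt3 -1.005 and Irf8 -1.003. That fit left out the unused value column, which this placement would name as a library without tamoxifen. Column 10 added gave Gfi1 0.015, Kit 0.14 and Gata2 0.087, and tamoxifen_3 alone gave Runx1 0.028, Spi1 0.24, Cebpe 0.18, Gfi1 0.27, Kit 0.39 and Gata2 0.62. The added alternatives were chosen after seeing the data. With 3 libraries per group, the 95% intervals above bound what could be seen.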
